A study of Mus musculus with 23 samples.

Results

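The BCL2 family of survival and death genes was followed in 6 groups of bone marrow-derived macrophages (BMDM), cells grown from mouse bone marrow with the growth factor M-CSF. Its members were 10 named genes, *Mcl1*, *Bcl2*, *Bcl2l1*, *Bcl2a1a*, *Bcl2a1d*, *Bax*, *Bcl2l11*, *Bid*, *Pmaip1* and *Bbc3*, matched through the accession that the array design gives for a probe. Of these, 9 were measured, by 11 probes, among 26512 genes and 33391 probes with an accession. *Bcl2a1a* had no matched probe and was not analysed here. The cells came from male C57BL/6 mice that were wild-type (wt), lacked MK2 (MK2-/-) or lacked both MK2 and MK3 (MK2/3-/-). MK2 and MK3 are the kinases activated by p38 MAPK that are encoded by *Mapkapk2* and *Mapkapk3*. Donor mice were 12 to 13 weeks old for wt, 10 to 13 for MK2-/- and 11 to 14 for MK2/3-/- BMDM. By the study's methods, the culture medium was replaced with one free of M-CSF shortly before the experiments. The cells received culture medium alone or 100 ng/ml of lipopolysaccharide (LPS), a cell wall component of gram-negative bacteria that activates Toll-like receptor 4, for 120 min. There were 4 arrays in a group, but 3 for MK2-/- BMDM without LPS. The knockouts are carried by the whole animal and not by macrophages alone.

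BCL2 family proteins decide whether the outer membrane of the mitochondrion is opened, which releases cytochrome c and starts the caspase cascade. Survival proteins such as MCL1, BCL2, BCL-XL and A1 bind and hold back the effectors BAX and BAK, and the BH3-only proteins BIM, BID, NOXA and PUMA bind the survival proteins or activate the effectors. Macrophages receive both survival and death signals through Toll-like receptors, and several of the survival genes are known targets of the transcription factor NF-κB.

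All values are log2 signals after quantile normalization over the 23 arrays, and differences between groups are log2 differences from a linear model with limma, with Benjamini-Hochberg adjusted p-values over all 26512 genes. A gene is said to have risen or fallen where the adjusted p was under 0.05. Each member was also tested by a two-sided exact permutation of its arrays. With 4 arrays against 4, or 4 against 3, the lowest p this allows is 0.0286. Medium and LPS arrays of one genotype and number, which also share the donor's age, were taken as 1 culture, although the labels do not name cultures. Array 3 of the untreated MK2-/- BMDM has the donor age of the fourth LPS array, 13 weeks, and was paired with that one. All arrays of a genotype lay on 1 slide, so that genotype and slide cannot be told apart. The LPS comparison of a genotype lies within its slide.

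All 11 probes of the family were marked well above background on all 23 arrays, and none was saturated. On an array, 47.5 to 69.1% of all probes were well above background, and both ends of this range lay among the MK2/3-/- arrays in medium. The other medium arrays were at 57.1 to 60.7% in wt and 54.2 to 55.7% in MK2-/- BMDM. After LPS the share was 56.2 to 60.8% in wt, 49.6 to 52.5% in MK2-/- and 48.5 to 55.4% in MK2/3-/- cells. All wt arrays after LPS thus lay above those of both knockouts, and genotype and slide cannot be told apart in this. The transcripts of the targeted genes followed the genotype labels. In MK2-/- BMDM *Mapkapk2* lay below wt in medium (difference -3.31) and after LPS (-2.81), and *Mapkapk3* was lower in MK2/3-/- than in MK2-/- BMDM after LPS (-3.27). All 7 macrophage markers measured were well above background on every array. With LPS *Cd14* rose in every genotype (2.04 in wt BMDM), *Fcgr1* and *Mertk* fell in wt (differences -1.27 and -1.69) and MK2-/- BMDM, and the other 4 did not pass. The linear signals of 4 fibroblast markers were summed on each array and the sum given in log2. In medium this sum, led by *Col1a1*, ran from 12.13 to 16.68 in wt, 10.28 to 15.07 in MK2-/- and 9.02 to 15.83 in MK2/3-/- cells. After LPS it ran from 11.97 to 16.40, 10.70 to 14.97 and 9.95 to 15.56. Of the fibroblast markers, *Pdgfrb* rose with LPS in MK2/3-/- BMDM (3.23, adjusted p = 0.0237) and no other passed for LPS in any genotype. Of the 4 dendritic cell markers, *Zbtb46* rose with LPS in every genotype, from a mean of 4.64 to one of 10.14 in wt BMDM, and the other 3 did not pass (in wt *Flt3* 0.06, *Siglech* 0.04 and *Xcr1* 0.82). Of 7 neutrophil markers measured, 5 or 6 in each group passed the background limit throughout. In medium their log2 sum ran from 11.92 to 13.28 in wt, 12.42 to 13.16 in MK2-/- and 11.55 to 14.19 in MK2/3-/- cells. After LPS it ran from 12.03 to 13.68, 11.64 to 13.67 and 11.70 to 14.07. No neutrophil marker passed for LPS in any genotype. The part of these cell type markers in the results below was not tested. In bulk RNA, fewer cells of a type and less RNA per cell cannot be told apart.

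The question of the first comparison was how LPS moved the family in BMDM of each genotype. In wt BMDM 5 of 9 members changed, compared with 16.9% of all genes. The 4 that rose were *Bcl2a1d*, *Bcl2l11*, *Bcl2l1* and *Mcl1* (8.16% of all genes rose) and the 1 that fell was *Bax* (8.78% of all genes fell). *Mcl1* is counted by 1 of its 2 probes, and with its brightest probe or the mean of its probes the counts were 4 in wt and 5 in either knockout. In MK2-/- BMDM 6 members changed, with 18.4% of all genes, and in MK2/3-/- cells 6, with 24.7%. The same 4 genes rose in both knockouts (8.41% and 11.9% of all genes), and *Bax* and *Bid* fell (9.98% and 12.8%). With the culture as a block *Bid* passed in wt BMDM as well (difference -0.77, adjusted p = 0.0288). Medium and LPS arrays did not overlap for 5 members in wt, 6 in MK2-/- and 6 in MK2/3-/- cells, against 22.8%, 32.7% and 26.2% of all genes. The median absolute log2 difference over the 9 members came to 0.77 in wt, 1.06 in MK2-/- and 0.91 in MK2/3-/- cells, beside 0.34, 0.39 and 0.42 over all genes. The 3 genotypes are tested against separate medium arrays. All 9 members were well above background on all 23 arrays, as were 12810 of the 26512 genes. The shares and medians of all genes in this paragraph also include the genes that were not. The same shares over the 12810 genes alone are not given, so detection and a response of the family are not separated here.

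**Figure D1:**
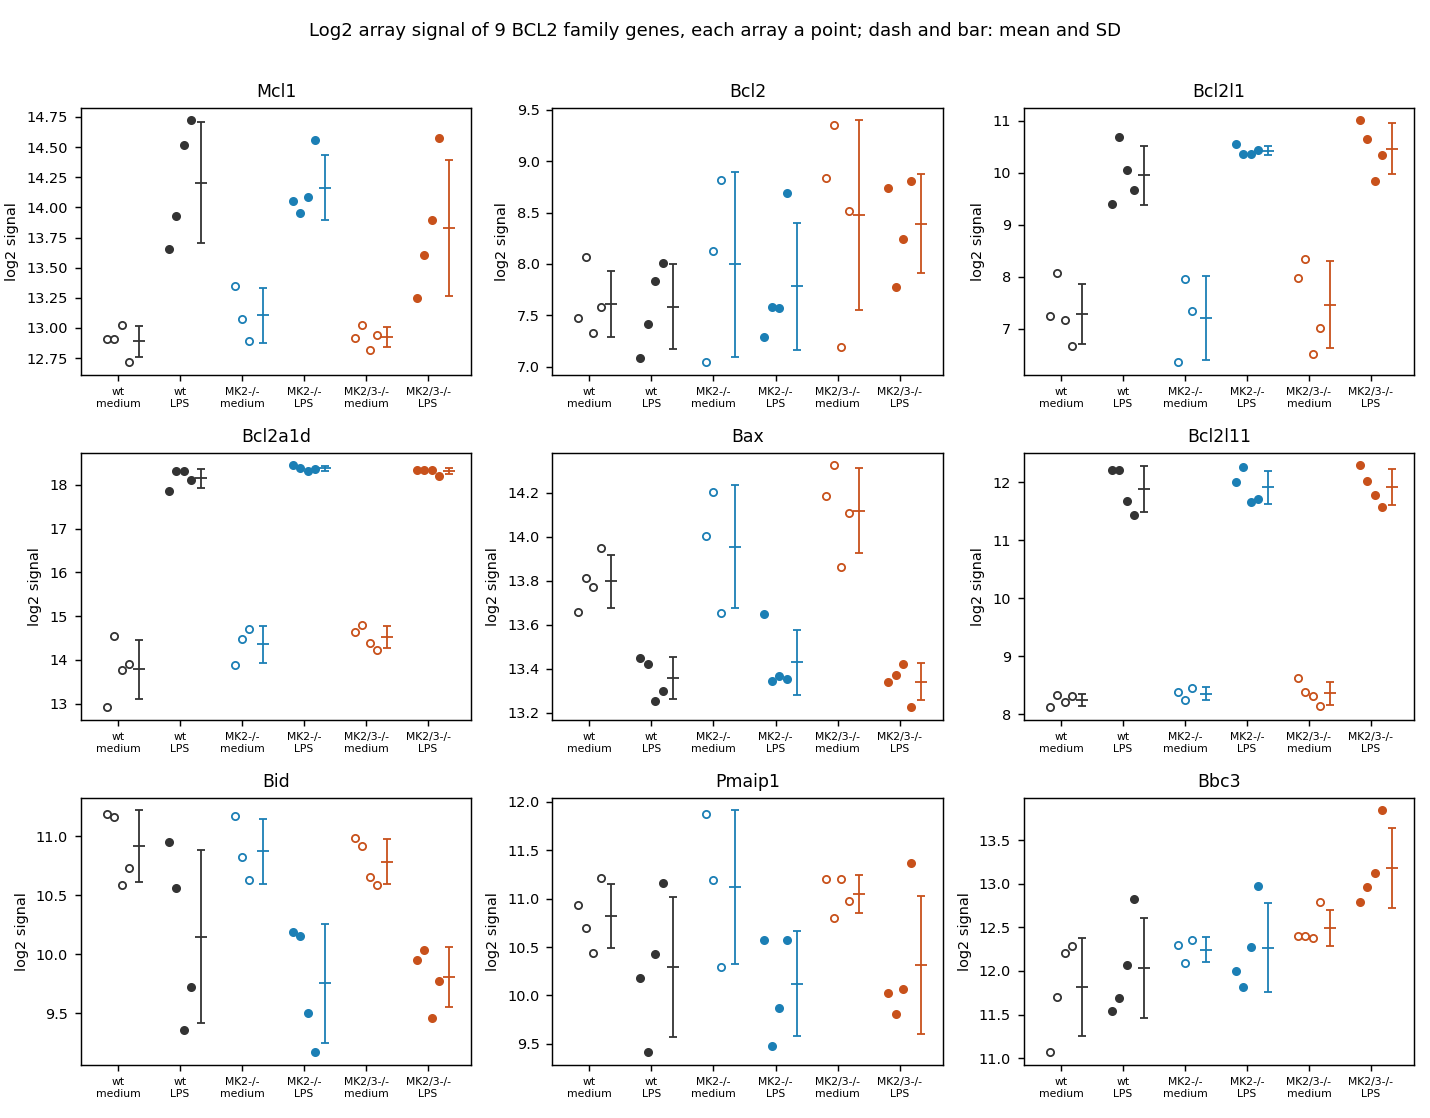
Log2 array signal of the 9 measured members in the 6 groups, 1 panel per gene, with open points for medium arrays, filled points for LPS arrays, and a dash with a bar for the mean and SD of a group (n = 4, MK2-/- medium n = 3). *Bcl2a1d*, *Bcl2l1* and *Bcl2l11* show LPS arrays far above all medium arrays of their genotype, *Bax* shows LPS arrays below them, and *Bcl2* and *Pmaip1* overlap between treatments. Axes differ between panels and do not start at 0.

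Among the survival genes, *Bcl2a1d* moved most. It encodes an A1 protein, a short-lived survival protein of leukocytes. The mouse carries several nearly identical copies of the A1 gene, and its probe (NM_007536, gene at chr9:88723288-88731850, GRCm38.p6) may also bind transcripts of the other copies, so the value is best read as that of the A1 group. The likeness of the copies reaches into their promoters. The RefSeq windows from 250 bases before to 50 after the start of *Bcl2a1d* and of *Bcl2a1a* share 288 of 294 aligned bases (98%). Both are shown on their own strand. This likeness of promoters does not bear on which transcripts the probe binds, which was not analysed here. Capitals mark the letters TGANTCA, searched for as an AP-1 motif, and GAGGAAGT, searched for as a PU.1 motif, each on both strands.

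Bcl2a1d, chr9:88731801-88732100, minus strand: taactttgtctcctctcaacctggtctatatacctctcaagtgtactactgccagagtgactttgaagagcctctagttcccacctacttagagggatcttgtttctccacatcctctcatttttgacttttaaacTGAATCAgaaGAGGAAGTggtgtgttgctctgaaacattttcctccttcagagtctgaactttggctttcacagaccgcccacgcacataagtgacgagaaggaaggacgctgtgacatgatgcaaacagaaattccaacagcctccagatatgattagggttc
Bcl2a1a, chr9:88956670-88956969, plus strand: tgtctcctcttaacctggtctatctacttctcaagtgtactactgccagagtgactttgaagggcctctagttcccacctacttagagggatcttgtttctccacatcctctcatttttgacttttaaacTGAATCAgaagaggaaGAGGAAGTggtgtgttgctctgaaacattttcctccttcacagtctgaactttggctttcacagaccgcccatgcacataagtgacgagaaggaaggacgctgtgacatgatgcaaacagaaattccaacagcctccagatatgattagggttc

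The AP-1 letters start at -114 in *Bcl2a1d* and at -120 in *Bcl2a1a*, with the start base counted as 0, and the PU.1 letters start at -104 in both. Of 32851 promoter windows of all genes, 7.81% hold the AP-1 letters and 3.2% the PU.1 letters. In wt BMDM in medium the *Bcl2a1d* signal was 12.91, 14.55, 13.78 and 13.90 on arrays 1 to 4, and after LPS it was 17.86, 18.31, 18.32 and 18.11. The lowest LPS array lay far above the highest medium array. The MK2-/- arrays had 13.87, 14.48 and 14.70 in medium and 18.45, 18.38, 18.31 and 18.37 after LPS, and the MK2/3-/- arrays 14.64, 14.80, 14.38 and 14.24 and then 18.33, 18.34, 18.34 and 18.21. Arrays in medium differed more among themselves than arrays after LPS, where the SD came to 0.22 in wt, 0.06 in MK2-/- and 0.07 in MK2/3-/- cells. These SDs are of quantile normalized values. Before normalization the intensities of MK2-/- BMDM ran from 15990 to 30480 in medium and from 288700 to 365000 after LPS. How far the normalization narrowed the spread after LPS was not tested. The increase was 4.37 in wt (SE 0.25, adjusted p = 1.53e-10), 4.03 in MK2-/- (adjusted p = 1.71e-09) and 3.79 in MK2/3-/- cells (adjusted p = 9.38e-10), or 20.6-, 16.3- and 13.8-fold. In each genotype 4 of 4 LPS arrays were above all medium arrays (exact permutation p = 0.0286). The increase in MK2/3-/- cells differed from that in wt by -0.57 (95% CI -1.30 to 0.15, adjusted p = 1.00).

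*Bcl2l1* (NM_009743, chr2:152758732-152833803) encodes BCL-XL, a survival protein present in most tissues, and was measured by 2 probes. The dimmer one gave 7.23, 8.07, 7.16 and 6.66 in wt BMDM in medium and 9.40, 10.69, 10.05 and 9.66 after LPS. No LPS array came as low as any medium array, and in both treatments the second array was the highest of the 4. Its increase was 2.67 in wt (SE 0.41, adjusted p = 9.10e-05), 3.22 in MK2-/- (adjusted p = 2.43e-05) and 3.00 in MK2/3-/- cells (adjusted p = 1.56e-05), or 6.36-, 9.30- and 8.02-fold. The brighter probe rose from a mean of 13.23 to 15.67 in wt, from 13.13 to 15.74 in MK2-/- and from 13.17 to 16.00 in MK2/3-/- cells. These increases of 2.44, 2.62 and 2.84 were also past the adjustment in a fit over all probes (adjusted p = 0.000121, 0.000118 and 1.42e-05), so that both probes of the gene rose by similar amounts in each genotype.

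Of the 3 RefSeq promoter windows of *Bcl2l1*, the second holds a match to the NF-κB consensus motif (in capitals), and it is shown because the other windows of the genes that rose hold none. The match starts at -242, and 4.51% of all windows hold one. The first window of *Bbc3*, a member that did not pass for LPS in any genotype, also holds matches, at -137 and -136. A role of these letters was not tested.

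Bcl2l1, second window, chr2:152830668-152830967, minus strand: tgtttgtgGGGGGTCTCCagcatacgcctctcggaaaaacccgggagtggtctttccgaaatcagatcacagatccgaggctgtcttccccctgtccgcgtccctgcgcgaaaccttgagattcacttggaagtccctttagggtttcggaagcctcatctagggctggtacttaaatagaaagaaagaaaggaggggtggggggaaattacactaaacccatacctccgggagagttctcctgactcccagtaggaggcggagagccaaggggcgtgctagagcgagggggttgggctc

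*Mcl1* (NM_008562, chr3:95656944-95663179) encodes MCL1, a survival protein with a rapid turnover of both transcript and protein, and here its 2 probes did not give the same answer. The dimmer probe, the one with the higher LPS induction in wt BMDM and therefore the one used for the gene, gave 12.90, 12.91, 13.03 and 12.71 in medium and 13.65, 13.93, 14.52 and 14.72 after LPS. All LPS arrays were above all medium arrays in wt, as they were in MK2-/- (13.35, 13.07 and 12.89 against 14.05, 13.95, 14.09 and 14.56) and in MK2/3-/- cells (12.92, 13.03, 12.82 and 12.94 against 13.25, 13.61, 13.90 and 14.57). The increase was 1.32 in wt (SE 0.25, adjusted p = 0.000648), 1.06 in MK2-/- (SE 0.27, adjusted p = 0.00733) and 0.91 in MK2/3-/- cells (SE 0.25, adjusted p = 0.00955). The brighter probe, for the same accession, was at 15.12, 15.57, 15.37 and 15.04 in wt BMDM in medium and at 14.53, 14.90, 15.42 and 15.76 after LPS. Its arrays overlapped between the treatments in every genotype, with differences of -0.13 (95% CI -0.67 to 0.42) in wt, -0.45 (-1.03 to 0.14) in MK2-/- and -0.29 (-0.83 to 0.25) in MK2/3-/- cells, none past the adjustment (adjusted p = 0.847, 0.322 and 0.475). The increase given for *Mcl1* therefore holds for 1 of its 2 probes. Where in the transcript each probe binds was not analysed here.

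**Figure D2:**
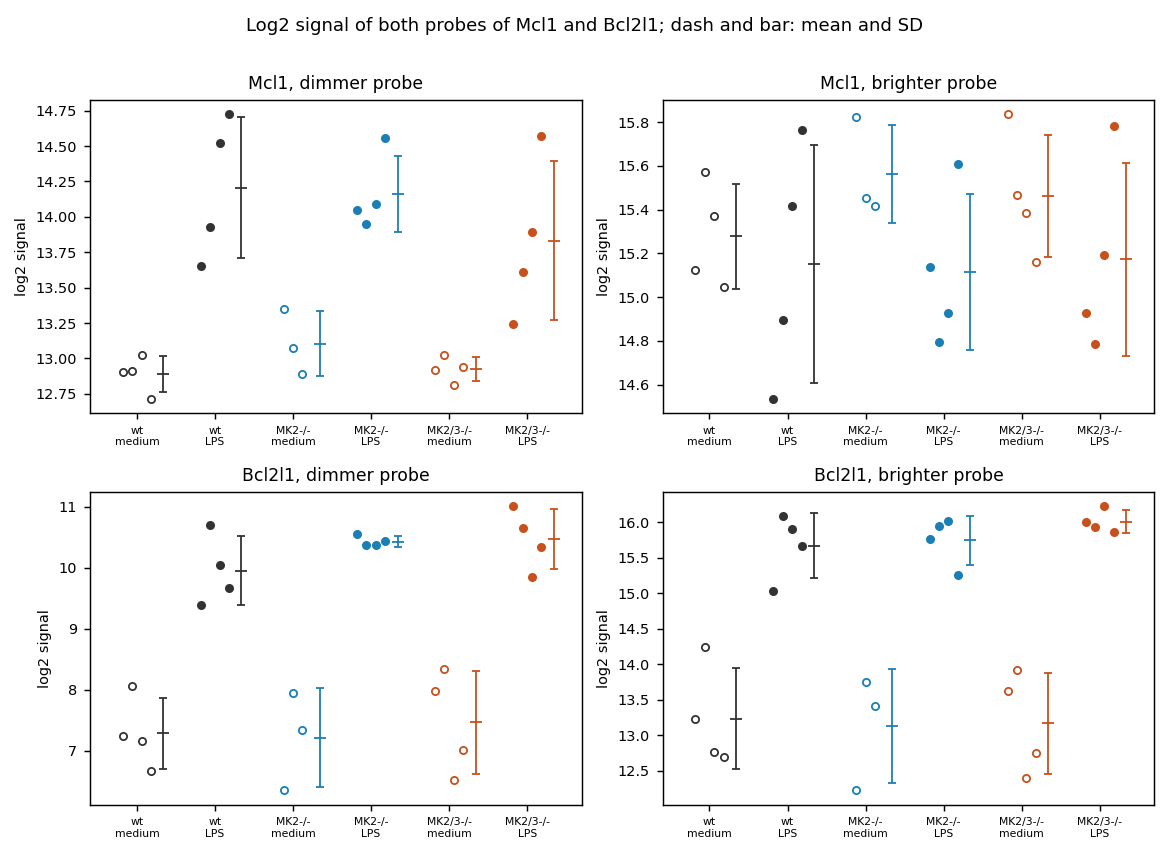
Log2 signal of both probes of *Mcl1* (top) and *Bcl2l1* (bottom) on each array of the 6 groups, open points for medium and filled points for LPS, with the mean and SD of each group. For *Bcl2l1* both probes are higher after LPS on every array, whereas for *Mcl1* the dimmer probe is higher after LPS and the brighter probe overlaps between treatments. Axes differ between panels and do not start at 0.

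*Bcl2* (NM_177410, chr1:106538176-106714290), the gene that gave the family its name, was measured by a dim probe that varied widely between arrays. Its lowest, median and highest signals ran from 7.33 over 7.53 to 8.06 in wt BMDM in medium and from 7.08 over 7.62 to 8.01 after LPS. In MK2/3-/- BMDM the arrays in medium were at 8.84, 9.35, 7.20 and 8.51, and those after LPS at 8.74, 7.78, 8.24 and 8.80. Medium and LPS arrays overlapped in every genotype, and the LPS difference was -0.03 in wt (95% CI -0.93 to 0.88), -0.21 in MK2-/- and -0.08 in MK2/3-/- cells, none past the adjustment.

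*Bax* (NM_007527, chr7:45461695-45466903) encodes the effector that forms the pore in the mitochondrial membrane. In wt BMDM its signal was 13.66, 13.81, 13.77 and 13.95 in medium and 13.45, 13.42, 13.25 and 13.30 after LPS. The MK2-/- arrays were at 14.00, 14.21 and 13.65 in medium and at 13.65, 13.35, 13.37 and 13.35 after LPS, and the MK2/3-/- arrays at 14.18, 14.32, 13.86 and 14.11 and then at 13.34, 13.37, 13.42 and 13.22. LPS arrays were below all medium arrays in every genotype, narrowly so in MK2-/- BMDM, where the first LPS array and the third medium array nearly met. *Bax* fell with a difference of -0.44 in wt (SE 0.13, adjusted p = 0.0209), -0.53 in MK2-/- (SE 0.14, adjusted p = 0.0102) and -0.78 in MK2/3-/- cells (SE 0.13, adjusted p = 0.00012). When arrays were scaled to their 75th percentile the differences were -0.09, -0.14 and -0.40 and none passed (adjusted p = 0.786, 0.646 and 0.0742). That scaling moved the median of all genes to 0.15, 0.20 and 0.06, relative to which *Bax* stood at -0.24, -0.33 and -0.46. The call in wt was also lost without the fourth wt array in medium (-0.39, adjusted p = 0.0737) or the third after LPS (-0.41, adjusted p = 0.0609), and that in MK2-/- without the second array in medium (-0.40, adjusted p = 0.083).

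The 4 BH3-only genes did not move together. *Bcl2l11* (NM_207680, chr2:128126038-128162547) encodes BIM, which binds all survival proteins of the family. It was at 8.12, 8.33, 8.21 and 8.32 in wt BMDM in medium and at 12.21, 12.20, 11.67 and 11.43 after LPS. In medium the SD came to 0.10 in wt, 0.11 in MK2-/- and 0.20 in MK2/3-/- cells, and after LPS 0.39, 0.28 and 0.31. The wt, MK2-/- and MK2/3-/- means were 8.24, 8.36 and 8.36 in medium and 11.88, 11.91 and 11.91 after LPS, and no LPS array came near a medium array. The increase was 3.64 in wt (SE 0.19, adjusted p = 5.68e-11), 3.55 in MK2-/- (adjusted p = 3.26e-10) and 3.55 in MK2/3-/- cells (adjusted p = 8.09e-11), or 12.4-, 11.7- and 11.7-fold. The increases in the knockouts differed from that in wt by -0.08 each (95% CI -0.67 to 0.50 for MK2-/- and -0.64 to 0.48 for MK2/3-/-). The death gene *Bcl2l11* therefore rose beside the survival genes *Bcl2a1d* and *Bcl2l1*.

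Its first RefSeq window is shown because *Bcl2l11* is a known target of forkhead factors of the FOXO type, whose letters GTAAACA (in capitals), searched for on both strands, start at -227. They are found in 3.65% of all windows.

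Bcl2l11, first window, chr2:128125788-128126087, plus strand: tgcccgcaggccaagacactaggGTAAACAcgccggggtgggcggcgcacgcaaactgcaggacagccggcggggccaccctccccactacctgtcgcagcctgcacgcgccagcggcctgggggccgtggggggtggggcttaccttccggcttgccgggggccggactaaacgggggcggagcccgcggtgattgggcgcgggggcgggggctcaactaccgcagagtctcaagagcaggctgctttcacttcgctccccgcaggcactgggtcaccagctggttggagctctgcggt

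*Bid* (NM_007544, chr6:120893119-120917062) encodes the BH3-only protein that is cut and activated by caspase-8. In MK2-/- BMDM it was at 11.17, 10.82 and 10.63 in medium and at 10.19, 10.15, 9.50 and 9.17 after LPS, and in MK2/3-/- cells at 10.98, 10.92, 10.66 and 10.59 and then 9.95, 10.04, 9.46 and 9.77. LPS arrays were below all medium arrays in both knockouts, and *Bid* fell by 1.12 in MK2-/- (difference -1.12, SE 0.32, adjusted p = 0.0177) and by 0.98 in MK2/3-/- cells (-0.98, SE 0.30, adjusted p = 0.019). In wt BMDM the arrays were at 11.19, 11.17, 10.59 and 10.73 in medium and at 10.95, 10.56, 9.35 and 9.72 after LPS. The groups overlapped there through the first LPS array, and the difference of -0.77 (95% CI -1.39 to -0.15) did not pass (adjusted p = 0.0884). With the culture as a block it did (adjusted p = 0.0288). The LPS response of *Bid* in MK2-/- differed from that in wt BMDM by -0.35 (95% CI -1.26 to 0.56, adjusted p = 1.00). The calls in the knockouts were lost without the fourth LPS array (-0.92, adjusted p = 0.0584) or the first medium array (-0.97, adjusted p = 0.0888) of MK2-/-, and without the third LPS array of MK2/3-/- BMDM (-0.87, adjusted p = 0.061).

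*Pmaip1* (NM_021451) encodes NOXA, which binds MCL1 and A1 and is a p53 target. Its LPS arrays spread widely. In MK2/3-/- BMDM they were at 10.03, 9.80, 10.06 and 11.37, beside 11.20, 10.80, 11.20 and 10.97 in medium. The lowest, median and highest signals in wt BMDM were 10.44, 10.81 and 11.21 in medium and 9.41, 10.30 and 11.17 after LPS, and the groups overlapped in every genotype. The LPS difference was -0.52 in wt (95% CI -1.35 to 0.30), -0.998 in MK2-/- (-1.89 to -0.11) and -0.73 in MK2/3-/- cells (-1.55 to 0.10), none past the adjustment (adjusted p = 0.462, 0.122 and 0.205). In each knockout 1 array decided this. Without the fourth LPS array of MK2/3-/- BMDM the difference there was -1.08 (adjusted p = 0.0421), and without the third medium array of MK2-/- BMDM it was -1.41 (adjusted p = 0.0423).

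*Bbc3* (NM_133234, chr7:16308398-16318334) encodes PUMA, which binds all survival proteins and is a p53 and FOXO target. LPS did not move it past the adjustment in any genotype. In wt BMDM it was at 11.07, 11.70, 12.21 and 12.28 in medium and at 11.54, 11.69, 12.07 and 12.83 after LPS, and in MK2/3-/- cells at 12.40, 12.40, 12.38 and 12.80 and then 12.79, 12.96, 13.13 and 13.84. The LPS difference was 0.22 in wt (95% CI -0.44 to 0.88), 0.02 in MK2-/- (-0.69 to 0.73) and 0.69 in MK2/3-/- cells (0.03 to 1.35, adjusted p = 0.125). Under scaling to the 75th percentile the last of these passed (0.99, adjusted p = 0.0202).

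**Figure D3:**
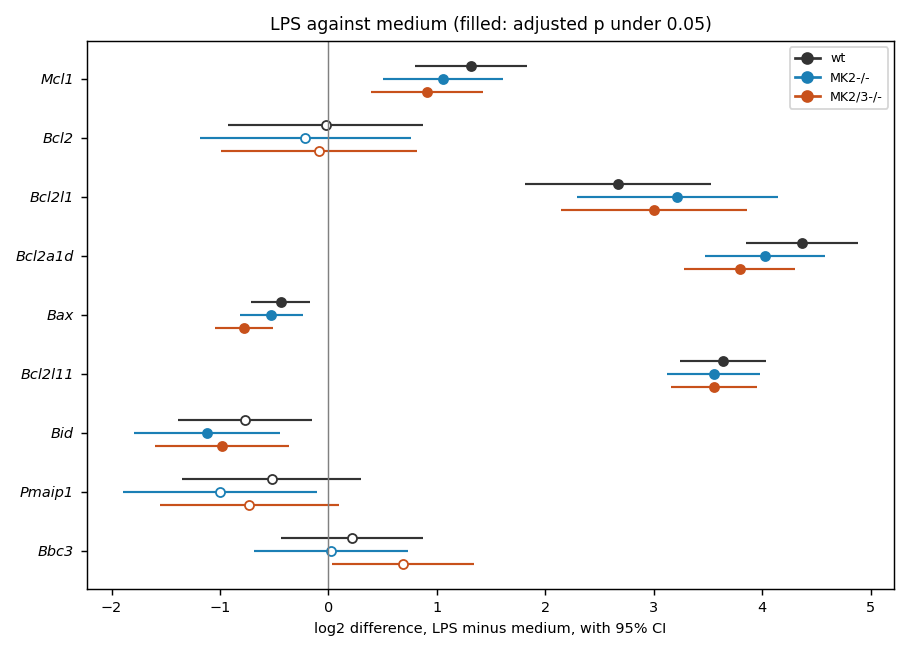
Log2 difference between LPS and medium for the 9 members in wt, MK2-/- and MK2/3-/- BMDM, with 95% confidence intervals from limma and filled points where the adjusted p was under 0.05. *Bcl2l1*, *Bcl2a1d* and *Bcl2l11* lie between 2.67 and 4.37, *Mcl1* (dimmer probe) between 0.91 and 1.32, and *Bax*, *Bid* and *Pmaip1* below 0 in all 3 genotypes.

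The next question was whether the loss of MK2, or of MK2 and MK3, changed the family. No member passed the adjustment in any of the 6 comparisons between genotypes, either in limma or in the methods' t-test. In medium this was 0 of 9 for MK2-/- against wt (0.00754% of all genes), MK2/3-/- against wt (0.0792%) and MK2/3-/- against MK2-/- (0.0453%). After LPS it was 0 of 9 for MK2-/- against wt (0.0302%), MK2/3-/- against wt (1.64%) and MK2/3-/- against MK2-/- BMDM (0.158%). The LPS responses likewise differed for 0 of 9 members between MK2-/- and wt (0.00377% of all genes), MK2/3-/- and wt (0.0113%) and MK2/3-/- and MK2-/- BMDM (0%).

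At an unadjusted p under 0.05 in medium, limma gave 1 member for MK2-/- against wt, *Bcl2a1d* (3.4% of all genes), 3 for MK2/3-/- against wt, *Bcl2a1d*, *Bbc3* and *Bax* (4.66%), and 0 for MK2/3-/- against MK2-/- BMDM (3.62%). After LPS it gave 0 for MK2-/- against wt (7.5%) and 1, *Bbc3*, for MK2/3-/- against wt (13.5%) and against MK2-/- BMDM (7.94%). For the LPS responses it gave 0 in each pair of genotypes (1.92% for MK2-/- and wt, 4.55% for MK2/3-/- and wt, 2.89% for MK2/3-/- and MK2-/-). The median difference of the 9 members from wt was 0.22 in medium for both MK2-/- and MK2/3-/- BMDM, beside 0.03 for all genes in either comparison, and 0.07 and 0.04 after LPS, beside 0.01 and 0.01.

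*Bbc3* was the member closest to a genotype difference. Its MK2/3-/- arrays after LPS lay between 12.79 and 13.84, the wt arrays between 11.54 and 12.83 and the MK2-/- arrays between 11.81 and 12.98. All 4 MK2/3-/- arrays were above the mean of either other genotype, and the groups overlapped through the fourth array of wt (12.83) and of MK2-/- BMDM (12.98). The fourth array was the highest of its group in all 3 genotypes, and arrays of the same number differed between MK2/3-/- and wt by 1.25, 1.27, 1.06 and 1.02. After LPS MK2/3-/- exceeded wt BMDM by 1.15 (95% CI 0.49 to 1.81, 2.22-fold, adjusted p = 0.0734, exact permutation p = 0.0571), and MK2-/- BMDM by 0.91 (0.26 to 1.57, adjusted p = 0.382). The first of these passed under scaling to the 75th percentile (1.33, adjusted p = 0.0301), when only genes well above background in at least 1 group were tested (adjusted p = 0.0441) and without the fourth wt LPS array (1.41, adjusted p = 0.0453). It also passed with the number as a replicate block, a setting chosen after seeing the data (adjusted p = 0.00459). In medium the MK2/3-/- arrays, from 12.38 to 12.80, did not overlap with wt (11.07 to 12.28; 4.05% of all genes) or MK2-/- BMDM (12.09 to 12.35; 6.46%), with differences of 0.68 (95% CI 0.02 to 1.34) and 0.25 (-0.46 to 0.96), neither past the adjustment (adjusted p = 1.00 each). The LPS response of *Bbc3* in MK2/3-/- differed from that in wt by 0.47 (-0.46 to 1.40).

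*Bcl2a1d* in medium had its lowest array in wt BMDM (12.91), and its means were 13.78 in wt, 14.35 in MK2-/- and 14.52 in MK2/3-/- cells. The differences from wt were 0.57 (95% CI 0.01 to 1.12) and 0.73 (0.22 to 1.25), with overlapping arrays and adjusted p = 1.00 and 0.794. *Bax* in medium was higher in MK2/3-/- than in wt BMDM by 0.32 (0.05 to 0.59, adjusted p = 0.975). For *Bcl2l11* after LPS the intervals of the difference from wt were the narrowest after those of *Bax*, from -0.37 to 0.43 for MK2-/- and from -0.36 to 0.43 for MK2/3-/- BMDM. For *Bcl2* they were the widest, from -0.71 to 1.099 and from -0.10 to 1.71, so a difference of up to 1.71 remains within what these arrays allow.

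**Figure D4:**
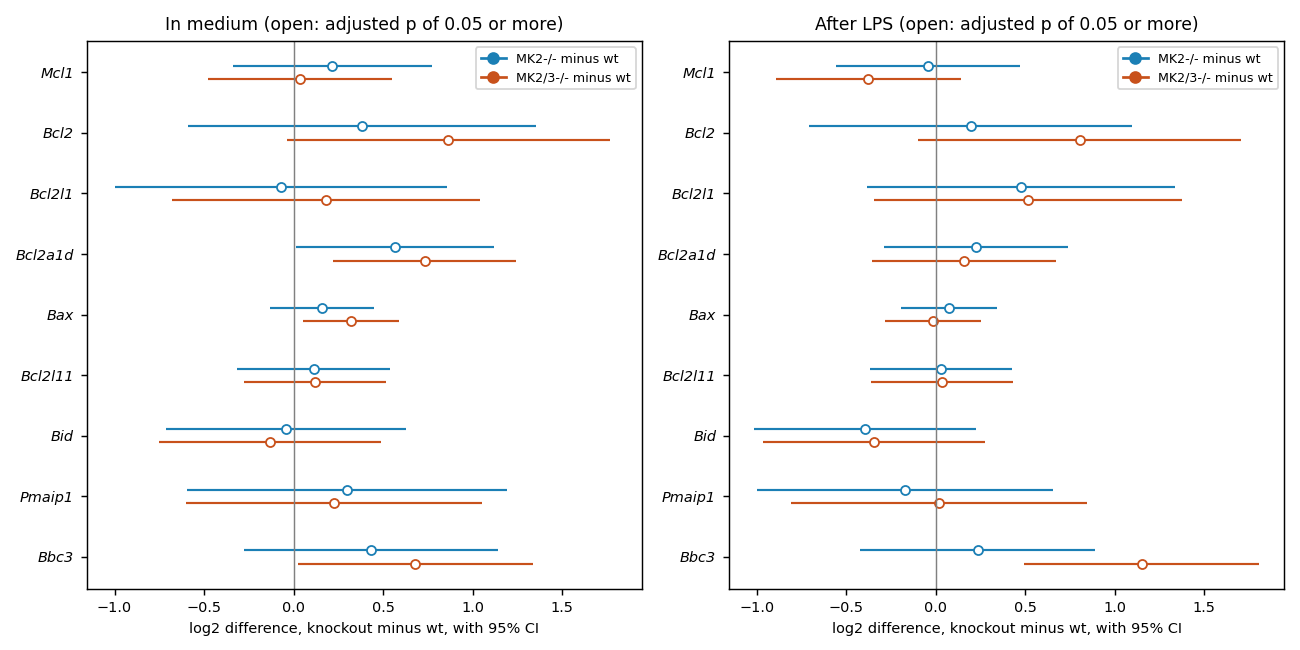
Log2 difference of MK2-/- and MK2/3-/- from wt BMDM for the 9 members in medium (left) and after LPS (right), with 95% confidence intervals from limma. All points are open, as no adjusted p was under 0.05, and the point farthest from 0 is *Bbc3* in MK2/3-/- cells after LPS at 1.15.

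The patterns of the 3 members with the widest range of group means were set against 12725 other genes. These were well above background on all 23 arrays and had no missing value. *Bcl2a1d* was most like *Bcl2a1c*, another A1 gene copy (Pearson r = 0.997), and the chemokine genes *Ccl3* (0.997) and *Ccl4* (0.995). *Bcl2l11* was most like *Exoc3l4*, the cytokine signalling inhibitor *Socs3* and the NF-κB inhibitor *Tnfaip3* (0.994 each), and *Bcl2l1* was most like the scavenger receptor gene *Msr1* (0.990), *Tank* (0.976) and *Rbm12* (0.975). These correlations are over 23 arrays that share the LPS contrast and are given as a description.

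Of 16 other BCL2 family genes, 15 were measured. In wt BMDM 3 rose and 1 fell with LPS, with a median difference of 0.10, in MK2-/- BMDM 2 rose and 1 fell, and in MK2/3-/- cells 2 rose and 2 fell. Of all genes 8.16% rose and 8.78% fell in wt, 8.41% and 9.98% in MK2-/-, and 11.9% and 12.8% in MK2/3-/- cells. *Bmf*, a BH3-only gene whose protein is held at the cytoskeleton, fell from a mean of 12.41 to 6.78 in wt (difference -5.63, SE 0.34, adjusted p = 4.30e-10), and its differences in MK2-/- and MK2/3-/- BMDM were -6.49 and -6.49. *Bcl2a1c* rose by 5.12 in wt, 5.25 in MK2-/- and 4.65 in MK2/3-/- cells, under the same limit of shared sequence as *Bcl2a1d*. *Bcl2l15*, a less studied family member, passed the background limit on 1 of 4 wt arrays without LPS and on no knockout array without LPS. After LPS all 4 wt and all 4 MK2-/- arrays passed it, and 2 of 4 MK2/3-/- arrays did. It rose in wt, where the fitted difference of 4.16 (adjusted p = 6.17e-06) rests on medium arrays of which 3 were not well above background. It rose at least 3.26-fold in MK2-/- cells, a bound set against the lowest signal well above background on each medium array. It also rose in MK2/3-/- cells (adjusted p = 0.00416), where 2 of the 4 LPS arrays were not well above background. No lower bound is given there, as such a bound needs LPS arrays above that limit. After LPS the mean of *Bcl2l15* came to 6.75 in wt, 5.61 in MK2-/- and 4.59 in MK2/3-/- cells. MK2/3-/- lay below wt (adjusted p = 0.0379), the 1 call of this list in a genotype comparison, beside 1.64% of all genes in the same one. The size of that difference is not well measured, as 2 of the 4 MK2/3-/- arrays were not well above background.

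Of 20 genes of the caspases, the apoptosome and the inhibitor of apoptosis (IAP) proteins, all 20 were measured, and 3 rose and 3 fell in wt, 4 rose and 3 fell in MK2-/-, and 5 rose and 5 fell in MK2/3-/- cells, where 16.9%, 18.4% and 24.7% of all genes changed. *Cflar*, whose protein cFLIP holds back caspase-8, rose from a mean of 8.83 to 14.58 in wt BMDM (5.75, SE 0.24, adjusted p = 2.98e-12), by 5.73 in MK2-/- and by 5.66 in MK2/3-/- cells. The IAP genes *Birc3* and *Birc2* rose by 2.37 and 1.72 in wt BMDM. The initiator caspases *Casp9*, which is activated on the apoptosome, and *Casp2* fell with differences of -2.33 and -1.78 in wt BMDM. Those in the knockouts were -2.61 and -2.29 for *Casp9* and -1.57 and -1.59 for *Casp2*. After LPS 2 genes were higher in MK2/3-/- than in wt BMDM, a comparison in which 1.64% of all genes changed. They were *Apaf1*, the scaffold of the apoptosome (0.70, SE 0.18, adjusted p = 0.0485), and *Birc6*, a giant IAP gene (1.00, SE 0.24, adjusted p = 0.0404).

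Of 17 regulators of the family, 16 were measured, and 4 rose and 1 fell in wt, 5 rose and 2 fell in MK2-/-, and 6 rose and 2 fell in MK2/3-/- cells, beside the same 16.9%, 18.4% and 24.7% of all genes. *Cdkn1a*, a p53 target that stops the cell cycle, rose by 3.61 in wt (SE 0.24, adjusted p = 2.05e-09), 3.19 in MK2-/- and 4.11 in MK2/3-/- cells. *Foxo1*, a forkhead factor for which *Bcl2l11* and *Bbc3* are known targets, had means of 9.65 in medium and 8.73 after LPS in wt (difference -0.91, adjusted p = 0.000427) and of 9.73 and 9.46 in MK2/3-/- cells. After LPS it was higher in MK2/3-/- than in wt BMDM by 0.72 (SE 0.16, adjusted p = 0.0305), as was *Huwe1*, a ubiquitin ligase for MCL1, by 0.67 (SE 0.16, adjusted p = 0.042). These were the 2 regulators called in that comparison, in which 1.64% of all genes changed. No gene of the 3 lists passed in the other genotype comparisons or in those of the LPS responses.

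**Figure D5:**
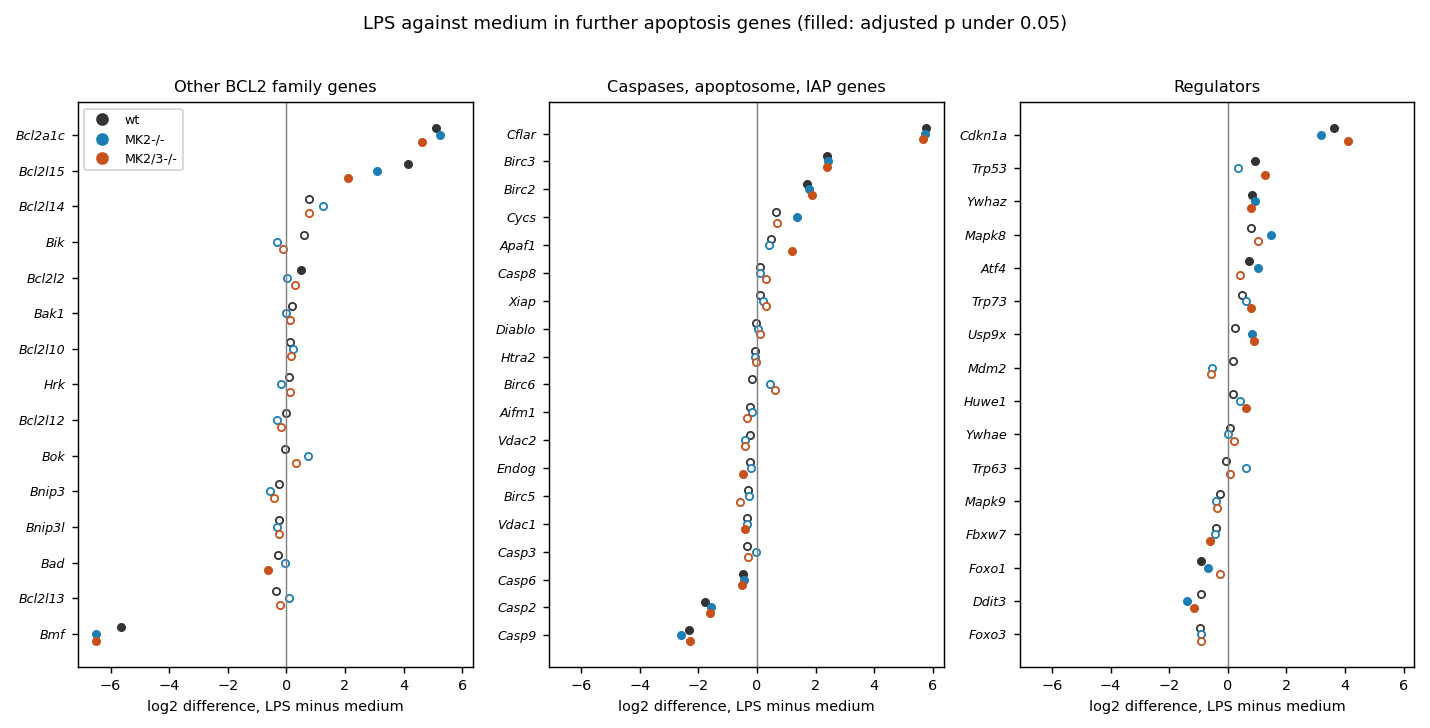
Log2 difference between LPS and medium in wt, MK2-/- and MK2/3-/- BMDM for 15 other BCL2 family genes (left), 19 of the 20 genes of caspases, apoptosome and IAP proteins (middle) and 16 regulators (right), sorted by the value in wt, with filled points where the adjusted p was under 0.05. *Cflar* at 5.75 and *Bmf* at -5.63 in wt BMDM mark the ends, and most genes lie near 0. *Bcl2l15* in the knockouts is plotted at its fitted value, although its medium arrays there were not well above background.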

How the data were processed

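The authors hybridized RNA of each sample with 1 dye to an Agilent array and deposited, from Feature Extraction 11.0.1.1, a linear intensity per spot with background subtracted and gradients corrected, not normalized between arrays. The log2 values they deposited, quantile normalized and expressed relative to the median of each probe, correlated with the values rebuilt here at 1.00 and served as an alternative.

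Here, outlier spots were treated as missing (258 of 1280663 probe values), intensities were log2 transformed, replicate spots averaged and arrays quantile normalized (R 4.3.3, limma 3.58.1, data.table version 1.17.8). As in the study's methods, each gene was read from the probe that LPS raised most in wt BMDM. Gene names and promoter windows came from RefSeq (GRCm38.p6). All 23 arrays entered 1 limma fit of 6 groups with 12 contrasts. Further genes are named where past the adjustment for LPS in wt with a log2 change of at least 1, or in any comparison of genotypes or responses. The values of 1 listed gene are not reported here, although the counts of its list include it. Members and lists were chosen with earlier results of these data known.

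Arrays taken as 1 culture deviated together: 11 pairs correlated at 0.0626 to 0.561 (median 0.252, 10 above 0.1) after removal of group means, and all 11 above 0.1 over detected genes, against a median of -0.0784 for 33 pairs of different cultures. Fits with the culture as a random block were therefore run beside the main one. Alternatives were 75th percentile scaling, normexp background with an offset of 50, the deposited values, signals floored at 5, other probe choices, a detection filter, the groups compared alone, the methods' t-test and leaving out each array. Scripts were tested on simulated data. Python 3.11.15, Biopython 1.88 and matplotlib 3.10.9 served for promoter windows and plots. The number of arrays limits the precision.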

Additional observations from a re-analysis of the deposited data

Results flagged for a closer look

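In groups of 4 arrays, 45 combinations of a member and a group were examined for an array that stands apart, and 4 were found; chance alone marks about 1 in 20. *Bcl2a1d* after LPS in MK2/3-/- BMDM had 1 array at 18.21 with the others between 18.33 and 18.34. *Pmaip1* after LPS in MK2/3-/- BMDM had 1 array at 11.37 with the others between 9.80 and 10.06, the array whose omission brought its LPS difference past the adjustment. *Bbc3* in medium in MK2/3-/- BMDM had 1 array at 12.80 with the others between 12.38 and 12.40. *Bax* after LPS in MK2-/- BMDM had 1 array at 13.65 with the others between 13.35 and 13.37.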

How the results depend on the processing

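Over all 108 differences of a member in a comparison, signals floored at 5 and the deposited log2 values changed no direction and no call. In the other settings the sign turned 122 times, 119 of them where the difference was past the adjustment in neither fit, and 3 times for *Mcl1*, whose brightest probe gave -0.13 in wt, -0.45 in MK2-/- and -0.29 in MK2/3-/- cells. With the mean of its probes *Mcl1* was at 0.60, 0.31 and 0.31, none past the adjustment. Among the other differences given above, *Bcl2l11* turned for the LPS response of MK2/3-/- against wt under 75th percentile scaling (0.034) and after LPS against wt with normexp (-0.068 in MK2-/-, -0.094 in MK2/3-/-), as did *Bbc3* for LPS in MK2-/- with normexp (-0.043).

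The members changed between MK2/3-/- and wt BMDM after LPS went from 0 to 1, *Bbc3*, under 75th percentile scaling, with the filter on detected genes (16560 tested) and without the fourth wt LPS array (range 0 to 1). Without single arrays the counts for LPS ran from 4 to 6 in wt, 5 to 7 in MK2-/- and 5 to 7 in MK2/3-/- cells and stayed at 0 in every other comparison. Signs turned without single arrays for *Bcl2* with LPS (-0.17 to 0.14 in wt, -0.69 to 0.20 in MK2-/-, -0.51 to 0.21 in MK2/3-/-) and between MK2-/- and wt after LPS (-0.10 to 0.36), for *Bbc3* with LPS (-0.046 to 0.38 in wt, -0.21 to 0.17 in MK2-/-), and for *Bcl2l11* after LPS against wt (-0.12 to 0.14 in MK2-/-, -0.11 to 0.15 in MK2/3-/-) and in the LPS response against wt (-0.23 to 0.030 in either knockout). With normexp, *Bax* in wt was at -0.34 (adjusted p = 0.0507) and *Bid* at -0.84 (adjusted p = 0.0278). With the compared groups alone, and with the methods' t-test, *Bax* and *Bid* in MK2-/- and *Mcl1* in MK2/3-/- cells no longer passed (adjusted p = 0.0927, 0.0529 and 0.0552, and 0.101, 0.0908 and 0.0828). The cause was not tested.

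The culture as a replicate block brought *Bid* for LPS in wt BMDM past the adjustment (-0.77, adjusted p = 0.0288) and changed no other call of a member. The methods describe independent experiments, each with untreated wt cells as its baseline, but the labels do not say that a number marks an experiment, and 16 of 22 pairs of one number in different genotypes correlated above 0.1 (-0.158 to 0.480). A replicate block by this number, chosen after seeing the data, gave 1 changed member between MK2/3-/- and wt BMDM after LPS, *Bbc3* at 1.15 (adjusted p = 0.00459), and brought *Bid* in wt (adjusted p = 0.00433) and *Bbc3* for LPS in MK2/3-/- cells (0.69, adjusted p = 0.0118) past the adjustment.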

Other observations

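Several genes of the 3 lists changed with LPS in the knockouts at less than the size required for naming or not in wt BMDM; they are named here after their values were seen. In MK2/3-/- BMDM *Apaf1* rose by 1.18 and *Trp53*, which encodes p53, by 1.28 (0.91 in wt BMDM). *Usp9x*, a deubiquitinase of MCL1, rose by 0.83 in MK2-/- and 0.90 in MK2/3-/- BMDM, and *Ddit3*, a stress factor that can raise *Bcl2l11*, fell with differences of -1.39 and -1.15. *Bad*, a BH3-only gene, fell in MK2/3-/- BMDM (difference -0.64). Differences between genotypes in these responses did not pass the adjustment.

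Among the promoter windows not shown, that of *Bax* holds letters of the E-box CACGTG at -9 and 35 (7.15% of all windows hold them). It also holds a p53 half-site at -201 (8.36%). The 3 windows of *Bbc3* have different starts, from which their positions are counted. The first holds 2 overlapping NF-κB consensus matches at -137 and -136, the second forkhead letters at -167 and the third an E-box at -64. The windows of *Mcl1*, *Bcl2* and *Bid* hold none of the 8 motifs searched, which besides those named were the cAMP response element TGACGTCA (1.79% of all windows) and the core of the interferon-stimulated response element (3.44%).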
